A study of Mus musculus with 24 samples.

Results

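The 8 genes described here encode membrane carriers of fuel and hormone, together with 1 chaperone: the monocarboxylate transporters Slc16a1, Slc16a3, Slc16a8, Slc16a9 and Slc16a12, the chaperone Bsg, the glucose transporter Slc2a1 and the thyroid hormone transporter Slco1c1. They were taken by name from the 31053 gene identifiers of the count data, each symbol matching 1 mouse Ensembl identifier. The choice was made with earlier results of these data known. The study measured transcripts in isolated cells of the mouse retinal pigment epithelium (RPE), the pigmented layer behind the photoreceptors, in mice with or without a floxed Ift20, a gene needed to assemble cilia. Libraries read 1 tag near the poly(A) end of each transcript, so a level, given as CPM (counts relative to library size, with TMM factors), is a share of transcripts and carries no length term. Controls carried the Dct-Cre driver alone, and mutants carried the same driver with the floxed Ift20 gene. The ages were P11 and P29, in postnatal days, and 3M, in months, and each of the 6 groups of genotype and age had 4 libraries. All animals were untreated and of mixed background strain, and their sex was not collected. Dct is expressed in melanocytes as well as in RPE, so the driver is not limited to the RPE, and no group without Cre was analysed here. The labels give 4 biological replicates a group but not the number of animals behind a library, so p-values measure the spread between these libraries.

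The RPE stands between the choroidal blood supply and the photoreceptors, and each nutrient that the outer retina takes from the choroid crosses it. Glucose enters and leaves the layer through the facilitative carrier encoded by Slc2a1 (GLUT1), while lactate made by photoreceptors enters the apical face and leaves at the basal face through proton-coupled carriers, chiefly the products of Slc16a1 (MCT1) and of the RPE-enriched Slc16a8 (MCT3). Basigin, the product of Bsg, is an immunoglobulin-type glycoprotein that escorts these carriers to the membrane. Slco1c1 encodes an organic anion transporting polypeptide with high affinity for thyroxine, best known from the vessels and choroid plexus of the brain.

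Libraries held 1513440 to 2889946 gene counts, and a count of 3, taken as the floor, lay between 1.00 and 1.90 CPM. Ift20 ran from 60.8 to 150 CPM in the P11 control libraries and from 76.7 to 94.2 in the mutants, from 84.9 to 124 against 57.9 to 88.8 at P29, and from 118 to 160 against 97.4 to 117 at 3M. Its log2 fold change was -0.27 (adjusted p = 0.353) at P11, -0.60 (adjusted p = 0.0112) at P29 and -0.26 (adjusted p = 0.547) at 3M, and a 3' tag does not show whether the floxed part is present. RPE identity genes summed to 18020 to 69680 CPM in the libraries and were detected in every group, with Best1 the 1 of 10 below the low-count filter. Markers of other cells differed with genotype. At P11 myelinating glia genes were lower in mutants in 5 of 5 tested, summing to 347 to 473 CPM in controls and 41.8 to 65.0 in mutants. So were 6 of 12 endothelial, 3 of 6 pericyte, 4 of 9 lens, 2 of 6 stromal fibroblast and 2 of 4 choroidal melanocyte genes. The melanocyte genes summed to 198 to 302 CPM in P11 controls and 163 to 175 in mutants, and 1 of the 4 was higher at P29. Rod genes were higher in mutants in 5, 8 and 8 of 8 at the 3 ages, erythrocyte genes in 2, 4 and 4 of 6, and lens genes in 8 of 9 at P29. Inner retinal neuron genes were higher in 2, 3 and 2 of 8 at the 3 ages, and cone genes in 1 of 6 at P11 and 3 of 6 at 3M. Of 6 Muller glia and astrocyte genes tested, 1 was lower at P11, 1 higher at P29 and 1 higher at 3M. At P11 the mutant libraries also had a larger share of mitochondrial counts, 10.3% to 11.2% against 7.30% to 8.79%. Reads assigned to no gene made up 26.5% to 27.5% of the P11 mutant libraries against 22.7% to 24.1% of their controls. The part of these in the differences of the members was not tested.

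In GRCm38 the members lie on 7 chromosomes. Slc16a1 (ENSMUSG00000032902) occupies chr3:104638668-104658462, Slc16a3 (ENSMUSG00000025161) chr11:120948480-120960868, Slc16a9 (ENSMUSG00000037762) chr10:70245100-70285968, Bsg (ENSMUSG00000023175) chr10:79704491-79711969, Slc2a1 (ENSMUSG00000028645) chr4:119108711-119137983 and Slco1c1 (ENSMUSG00000030235) chr6:141524368-141570177, all on the plus strand. The minus strand carries Slc16a8 (ENSMUSG00000032988) at chr15:79251014-79254761 and Slc16a12 (ENSMUSG00000009378) at chr19:34668403-34747289. Slc16a8 lies wholly within Gm49486 on the other strand, which had 0 to 10 counts a library and 41 in all. The last exon of Slc16a9, where 3' tags fall, overlaps Gm7097 and Gm9877 on the other strand, and that of Slc2a1 overlaps Gm12868. Gm7097 and Gm12868 had 0 counts in every library, and Gm9877 was not analysed here. With use of strand not given in the sources used here, reads of these genes and of their antisense partners cannot be told apart.

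The 250 bases before the RefSeq start (GRCm38.p6) of 4 members are printed. Of these, Slc16a1, Slc16a9 and Slco1c1 were lower in mutants at all 3 ages and Slc2a1 at P29 alone. RefSeq starts differ from the gene coordinates above, and the windows of Slc16a9 and Slc2a1 run past the gene starts given there. Capitals mark matches on either strand to CACGTG, the palindromic E-box of the MITF family, or to its inner part ACGTG, the core of the hypoxia response element, which every CACGTG contains. The regions are chr3:104638414-104638663, chr10:70245026-70245275, chr6:141524104-141524353 and chr4:119108495-119108744, in the order below and all on the plus strand.
Slc16a1: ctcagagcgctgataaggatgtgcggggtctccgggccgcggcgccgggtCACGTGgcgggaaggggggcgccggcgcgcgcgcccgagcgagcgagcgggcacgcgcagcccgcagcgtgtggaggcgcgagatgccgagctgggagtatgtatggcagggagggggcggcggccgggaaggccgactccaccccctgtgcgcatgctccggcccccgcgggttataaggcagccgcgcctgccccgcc
Slc16a9: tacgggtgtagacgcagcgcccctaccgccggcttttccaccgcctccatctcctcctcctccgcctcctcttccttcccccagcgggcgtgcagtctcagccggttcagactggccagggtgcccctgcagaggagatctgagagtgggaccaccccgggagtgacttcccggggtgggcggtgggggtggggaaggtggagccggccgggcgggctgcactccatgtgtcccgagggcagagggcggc
Slco1c1: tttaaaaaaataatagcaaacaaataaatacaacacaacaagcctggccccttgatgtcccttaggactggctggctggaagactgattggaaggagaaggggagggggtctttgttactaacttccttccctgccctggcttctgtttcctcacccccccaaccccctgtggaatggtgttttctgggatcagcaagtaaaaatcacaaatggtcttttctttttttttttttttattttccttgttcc
Slc2a1: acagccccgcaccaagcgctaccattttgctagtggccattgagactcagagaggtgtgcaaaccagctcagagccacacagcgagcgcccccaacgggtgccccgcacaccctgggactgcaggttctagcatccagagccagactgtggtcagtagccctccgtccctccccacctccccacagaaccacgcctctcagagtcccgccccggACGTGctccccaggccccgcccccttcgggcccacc
CACGTG occurred in windows of this length before 6.02% of 32851 RefSeq promoters, and among the 7 members with an entry in those of Slc16a1, 200 bases before the start, and Slc16a12. ACGTG occurred in 16.6% of promoters and in 4 of the 7, with 2 copies in Slc16a3 and 1 in Slc2a1, 36 bases before its RefSeq start. The Slc16a3 window, chr11:120948817-120949066, lies wholly within the gene coordinates given above. TAATCC, the core bound by OTX factors, occurred in 6.25% of promoters and in none of the 7. The windows of Slc16a9 and Slco1c1 held none of the 3 motifs, and their GC content was 70.4% and 42.8%, against 76.4% for Slc16a1 and 66.4% for Slc2a1. Bsg has no entry in that table. These are matches of letters and not shown to be binding sites.

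Of the 8 members, 7 passed the low-count filter and Slc16a12 did not. Mutants had lower levels of 4 members at P11 (Slc16a1, Slc16a9, Bsg and Slco1c1), 4 at P29 (Slc16a1, Slc16a9, Slc2a1 and Slco1c1) and 3 at 3M (Slc16a1, Slc16a9 and Slco1c1), and no member was called higher. Scaled to RPE markers in place of all genes, none of these lower calls was kept at P11 or P29. On that scale 1 member was called higher at P11, 1 higher at P29 and 2 lower at 3M, as detailed after the single genes. That scale called 2274 of all genes higher and 141 lower at P11, 1705 and 24 at P29, and 354 and 31 at 3M. A call here is a Benjamini-Hochberg adjusted p under 0.05 over all 12303 genes tested with edgeR's quasi-likelihood test, which called 6.93% of genes at P11, 2.84% at P29 and 2.61% at 3M. The median log2 fold change of the 7 members, mutant over control, was -0.27, -0.26 and -0.10 at the 3 ages, beside medians of -0.00155, -0.000732 and 0.03 over all genes tested. At P29 the count was 2 without P29 mutant replicate 2. Fewer cells of a type and less RNA per cell cannot be told apart in these data, for these differences and all those that follow.

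**Figure D1:**
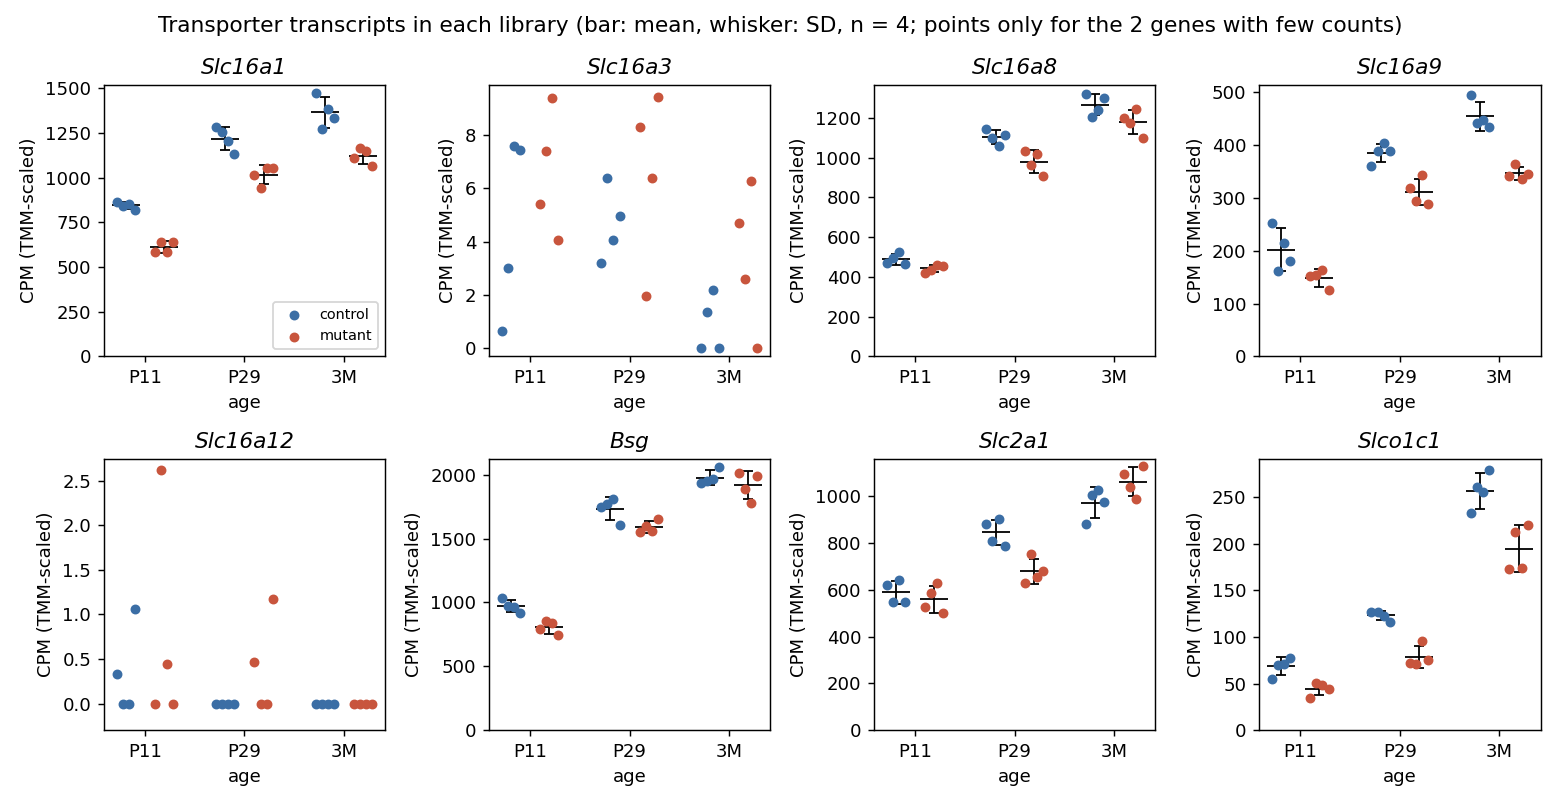
Levels of the 8 transporter genes in CPM (vertical axes, linear, a separate scale per gene) in each of the 24 libraries by age, with controls in blue and mutants in red, horizontal bars at the mean and whiskers of 1 SD over 4 libraries. For Slc16a3 and Slc16a12, with 0 to 24 counts a library, points alone are drawn. The mutant points of Slc16a1 and Slco1c1 lie below all control points of the same age at P11, P29 and 3M.

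Slc16a1, the widely expressed lactate and pyruvate carrier, fell in mutants at every age. At P11 the control libraries stood at 867, 839.8, 855 and 819 CPM and the mutant libraries at 587, 639, 585 and 641. At P29 controls stood at 1282, 1259, 1206 and 1132 CPM and mutants at 1015, 941, 1054 and 1057. At 3M controls stood at 1475, 1271, 1383 and 1336 CPM and mutants at 1113, 1164, 1148 and 1065. No mutant library reached a control library of its own age, and the gap was widest at P11. In terms of fold, the P11 level fell by 27.5%, a log2 fold change of -0.46 (SE 0.06, adjusted p = 4.72e-08). For P29 the log2 fold change was -0.26 (SE 0.06, adjusted p = 0.00456), and for 3M -0.28 (SE 0.06, adjusted p = 0.00167). Without P29 mutant replicate 2, its lowest library, the P29 difference did not pass (-0.23, adjusted p = 0.054). The effect did not pass a test of difference between ages (P29 minus P11 0.20, adjusted p = 0.28).

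Slc16a8, the lactate carrier of the basal RPE membrane, did not pass at any age in the same test. Controls ran from 466 to 525 CPM at P11 and mutants from 421 to 459, and at P29 the ranges were 1059 to 1143 and 907 to 1032. The mutant libraries were all below the controls at these 2 ages, by a small margin, and at 3M the ranges of 1205 to 1320 and 1097 to 1244 overlapped. The log2 fold changes were -0.14 (SE 0.07, adjusted p = 0.228), -0.17 (SE 0.06, adjusted p = 0.166) and -0.10 (SE 0.06, adjusted p = 0.603) in order of age. DESeq2 (adjusted p = 0.0461) and limma voom (adjusted p = 0.0125) called the P29 difference.

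Slc16a3 encodes the carrier (MCT4) that exports lactate from glycolytic cells. It gave 0 to 24 counts a library, near the floor. At 3M the controls had 0, 3, 5 and 0 counts and the mutants 12, 6, 14 and 0, which overlap. Its log2 fold changes, 0.52, 0.49 and 1.91 with standard errors of 0.75, 0.73 and 0.89, did not pass (adjusted p of 0.779, 0.895 and 0.378).

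Bsg, the chaperone of the lactate carriers, fell in mutants at P11. The control libraries stood at 1032, 969, 962 and 918 CPM and the mutants at 789, 855, 839.7 and 744, with no overlap. Its log2 fold change was -0.27 (SE 0.06, adjusted p = 0.00102), kept in all 8 refits without 1 library. At P29 the controls ran from 1609 to 1813 CPM and the mutants from 1554 to 1651, and at 3M from 1934 to 2059 and from 1779 to 2014. Genotypes overlapped at both of these ages, with log2 fold changes of -0.12 (SE 0.06, adjusted p = 0.378) and -0.04 (SE 0.06, adjusted p = 0.896). The genotype effect at 3M minus that at P11 was 0.22 (adjusted p = 0.158), so a difference between ages was not shown.

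Slc16a9, whose product (MCT9) is known as a carnitine carrier, fell at every age. At P11 the controls stood at 253, 161, 215 and 179.6 CPM and the mutants at 152, 153, 163 and 125. At P29 they stood at 361, 388, 403 and 388 CPM and 319, 294, 343 and 288, and at 3M at 495, 442, 447 and 434 CPM and 341, 363, 336 and 344. The P11 groups overlapped, 1 mutant library exceeding the lowest control, while at P29 and 3M every mutant was below every control. At P11 this gave a log2 fold change of -0.46 (SE 0.10, adjusted p = 0.000707), for P29 one of -0.31 (SE 0.09, adjusted p = 0.0444), and for 3M one of -0.39 (SE 0.09, adjusted p = 0.00346). The P29 call was kept in 1 of 8 refits that left out 1 library, that without P29 mutant replicate 3, with adjusted p from 0.0303 to 0.192 over the 8.

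Slc16a12, a creatine carrier (MCT12) known from the lens and kidney, gave 0 to 6 counts a library and was not tested. Controls at P11 had 3 counts in all and mutants 7, of which 6 were in 1 library, and mutants at P29 had 4. Controls at P29 and 3M and mutants at 3M had 0 counts over 4 libraries, which allows up to 0.299, 0.321 and 0.320 CPM over the group. These limits cover counting error only. Lens genes summed to 33.2 to 48.2 CPM in the P29 controls and to 754 to 791 in the P29 mutants, the group that held those 4 counts, and their part in them was not tested.

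Slc2a1, the glucose transporter, was lower in mutants at P29 and did not pass at P11 or 3M. At P11 the controls stood at 622, 546, 641 and 546 CPM and the mutants at 524, 585, 628 and 501. At P29 the controls stood at 879.6, 808, 903 and 789 CPM and the mutants at 629, 753, 654 and 678. At 3M the controls stood at 881, 1005, 1027 and 976 CPM and the mutants at 1093, 1037, 986 and 1128. The genotypes overlapped at P11, were apart at P29 with all mutants lower, and overlapped again at 3M, where 3 of 4 mutants were above every control. At P11 this gave a log2 fold change of -0.07 (SE 0.07, adjusted p = 0.651), for P29 one of -0.32 (SE 0.07, adjusted p = 0.00221), and for 3M one of 0.13 (SE 0.07, adjusted p = 0.54), and the P29 call was kept in all 8 refits without 1 library. The genotype effect at 3M minus that at P29 was 0.44 (SE 0.10, adjusted p = 0.00682), the 1 call among the 7 members in a comparison that called 0.853% of genes, and it stayed between 0.40 and 0.50 in 16 of 16 refits without 1 library. P29 minus P11 called none of the 7 members and 2.63% of genes, and 3M minus P11 none and 2.53%. At an unadjusted p under 0.05 these 2 comparisons counted 2 members each, and DESeq2 and voom called none as well.

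Slco1c1, the thyroxine transporter, showed log2 differences of up to -0.65 between genotypes. At P11 the controls stood at 55.5, 70.4, 71.5 and 77.6 CPM and the mutants at 34.9, 51, 48.2 and 44.7. At P29 the controls stood at 127, 127, 122 and 116 CPM and the mutants at 72.4, 71.3, 95.7 and 74.9. At 3M the controls stood at 233, 261, 255 and 279 CPM and the mutants at 173, 213, 174 and 220.1. All mutants were below all controls of their age, although at P29 1 mutant library stood well above the other 3. At P11 this gave a log2 fold change of -0.61 (SE 0.14, adjusted p = 0.0021), for P29 one of -0.65 (SE 0.13, adjusted p = 0.000188), and for 3M one of -0.40 (SE 0.12, adjusted p = 0.0451). The P11 call was lost with voom (adjusted p = 0.0553) and with the P11 groups alone (adjusted p = 0.0531), and the 3M call was kept in 2 of 8 refits without 1 library, those without 3M control replicate 1 or 3M mutant replicate 4 (adjusted p from 0.0412 to 0.226 over the 8). Slco1c1 is known from brain endothelium, so the endothelial markers stand beside it: their 12 genes summed to 507 to 535 CPM in P11 controls and 227 to 294 in mutants, to 111 to 141 and 157 to 187 at P29, and to 53.0 to 80.4 and 85.2 to 95.8 at 3M. Of the 12, 6 were lower and none higher in mutants at P11, 1 was higher and none lower at P29, and 2 were higher and none lower at 3M, and the others did not pass. Their part in the Slco1c1 values was not tested. Plvap, a protein of fenestrated vessels such as the choriocapillaris, stood at -2.25 (adjusted p = 1.32e-06) at P11 and the junction gene Esam at 2.19 (adjusted p = 0.0047) at P29.

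The 6 members with ample counts were next compared between ages within a genotype. From P11 to P29 all 6 rose in controls, where 32% of genes were called, and all 6 in mutants, where 31.7% were called. From P29 to 3M 4 members rose in controls, where 12% of genes were called, and the same number in mutants, where 12.7% were: Slc16a8, Bsg, Slc2a1 and Slco1c1 in both. The median over the 7 members tested was 0.84 and 0.81 for the first step in controls and mutants, and 0.20 and 0.27 for the second, against -0.02, -0.01, -0.03 and -0.01 over all genes tested. The control and mutant steps share no library, but each step shares its P29 libraries with the other.

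Slc16a8 had the steepest first step of the lactate carriers, from 488 ± 27.6 CPM (SD, n = 4) to 1104 ± 35.2 in controls, a log2 change of 1.18 (SE 0.07), and of 1.15 (SE 0.07) in mutants. Slc16a1 rose by 0.53 in controls and 0.73 in mutants, Slc16a9 by 0.92 and 1.07, Bsg by 0.84 and 0.98, and Slc2a1 by 0.52 and 0.28. Slco1c1 rose in both steps, from 68.7 ± 9.38 to 123 ± 5.08 and 257 ± 19.1 CPM (SD, n = 4) in controls. Its second step, 1.06 (SE 0.12, adjusted p = 9.62e-12) in controls and 1.31 (SE 0.13, adjusted p = 3.40e-15) in mutants, stood beside smaller values of the other members that rose: Slc2a1 rose by 0.20 and 0.64, Slc16a8 by 0.20 and 0.27, and Bsg by 0.19 and 0.27. In controls Slc16a1 at 0.16 (adjusted p = 0.0777) and Slc16a9 at 0.24 (adjusted p = 0.074) did not pass this step. On the second step in controls, 1 to 4 members were called when 1 library was left out, with 1 without 3M control replicate 4 and 2 without P29 control replicate 2 or 4. Slc2a1 kept its call in 2 of 8 such refits, without P29 control replicate 3 or 3M control replicate 1. Slc16a8 lost its call without P29 control replicate 2 or 3 or 3M control replicate 1 or 4, and Bsg without P29 or 3M control replicate 4.

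**Figure D2:**
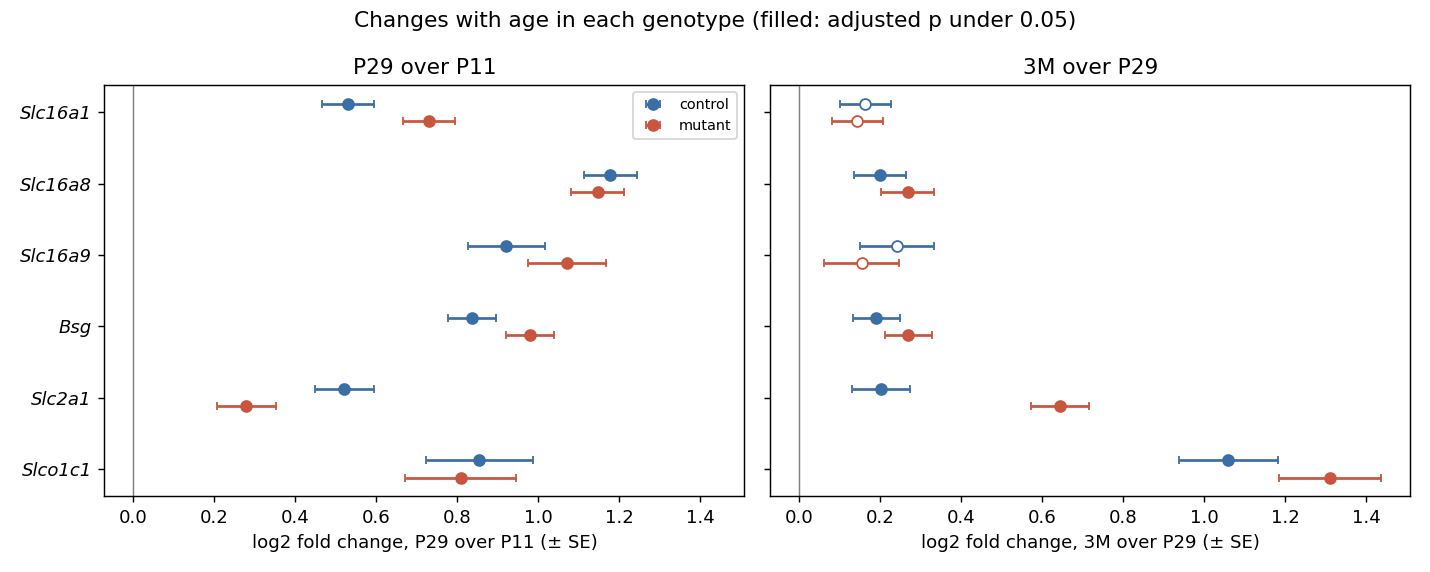
Log2 fold change with age (horizontal axes, ± SE) of 6 transporters from P11 to P29 (left) and from P29 to 3M (right), controls in blue and mutants in red, with filled points for an adjusted p under 0.05. All 12 points on the left are filled and above 0 with libraries scaled over all tested genes, and all 12 values reverse when scaled to RPE markers, while on the right Slco1c1 lies at 1.06 and 1.31.

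Ordered by mean level, 5 of the 6 members had the P11 mutants lowest, then the P11 controls, the P29 mutants, and 3M controls highest. In Slc16a1 the P29 controls overlapped both 3M groups, with 3M mutants at 1122 ± 43.9 CPM, below the P29 controls at 1220 ± 66.6. Slc16a9 likewise had 3M mutants, at 346 ± 11.8 CPM, below P29 controls, at 385 ± 17.5, and their ranges overlapped. Slc16a8 had P29 controls, 3M mutants and 3M controls in that order, each overlapping the next. Slc2a1 alone of the 6 had 3M mutants on top, overlapping the 3M controls. Bsg groups overlapped their neighbours from the P29 mutants upward. In Slco1c1 the P11 controls and P29 mutants overlapped, and every other pair of neighbours was apart.

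The genotype differences depend on what the libraries are scaled to. RPE identity genes were themselves lower in mutants, in 7, 5 and 1 of 9 tested at P11, P29 and 3M, with Rpe65, the retinoid isomerase, at -0.32, -0.34 and -0.15. Lrat, which makes the retinyl esters that Rpe65 uses, stood at -0.37 at P11 and -0.15 at 3M, the latter not passing (adjusted p = 0.287), and the opsin-like Rgr at -0.48 at P29. Rod genes moved the other way, with the arrestin Sag at 0.36, 0.70 and 1.13. Libraries were then scaled to 8 RPE markers instead, a scaling chosen after seeing the data. The 8 were Rpe65, Rlbp1, Rgr, Lrat, Rdh5, Mitf, Kcnj13 and Stra6. Ttr, the most abundant gene of the RPE list, was left out. Its mean was 12070 CPM in P11 controls and 12340 in P11 mutants. The median log2 fold change of all genes became 0.32 at P11, 0.33 at P29 and 0.09 at 3M. Calls became 2274 higher and 141 lower at P11, 1705 and 24 at P29, and 354 and 31 at 3M, against 401 and 452, 201 and 149, and 262 and 59 before.

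On this scale, relative to RPE markers, 1 member was called at P11, Slc2a1, which was higher in mutants at 0.25 (adjusted p = 0.0181). At P29 1 member was called, Bsg, also higher, at 0.21 (adjusted p = 0.02). Both values lay below the median of all genes on this scale, 0.32 at P11 and 0.33 at P29. Of all 12303 genes, 2274 were called higher at P11 and 1705 at P29. At 3M Slc16a1 at -0.22 and Slc16a9 at -0.33 were still lower (adjusted p = 0.0417 for each). Slco1c1 remained negative at -0.28, -0.32 and -0.33, none of which passed (adjusted p of 0.201, 0.12 and 0.217). Slc16a1 at P11 and P29 stood at -0.14 and 0.07 and passed at neither age (adjusted p of 0.133 and 0.528). The difference of the Slc2a1 genotype effect between 3M and P29 was 0.17 on this scale and did not pass (adjusted p = 0.518).

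The age steps reversed on the same scale, on which the median of all genes from P11 to P29 was -1.55 in controls and -1.54 in mutants. The 10 RPE genes, which include Ttr and so are not the scaling set, summed to 18960 to 19680 CPM in P11 controls. Their sums were 49050 to 49930 in P29 controls and 66230 to 69120 in 3M controls. Relative to RPE markers, the 6 members fell from P11 to P29 in both genotypes, Slc16a1 by 1.01 on the log2 scale in controls and Slc16a8 by 0.36. Most genes did so, with 10504 of 12303 called lower in controls and 10339 in mutants. Each of the 6 fell by less than the median of all genes. From P29 to 3M Slco1c1 rose on this scale too, at 0.72 (adjusted p = 1.86e-05) in controls and 0.70 (adjusted p = 2.47e-05) in mutants. No other member was called higher. In mutants Slc16a1 (-0.47), Slc16a9 (-0.46), Slc16a8 (-0.34) and Bsg (-0.34) were called lower, and in controls Slc16a1 (-0.18) and the sparse Slc16a3 (-2.64). The median of all genes for this step was -0.37 in controls and -0.62 in mutants, with 2984 and 5489 genes called lower. Endothelial sums were lower at the later ages, at 507 to 535 CPM in P11 controls, 111 to 141 at P29 and 53.0 to 80.4 at 3M. In the same order erythrocyte sums were 26970 to 29050, 2569 to 3201 and 2081 to 2210 CPM. Rod sums were 9086 to 10240, 9070 to 9773 and 3433 to 3823, and stromal fibroblast sums 2491 to 2753, 1724 to 1826 and 523 to 1046. Microglia and macrophage sums rose, at 309.5 to 373.6, 469 to 507 and 508 to 610, as did Muller glia and astrocyte sums from P11 to P29. The part of these cells in the age steps was not tested.

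**Figure D3:**
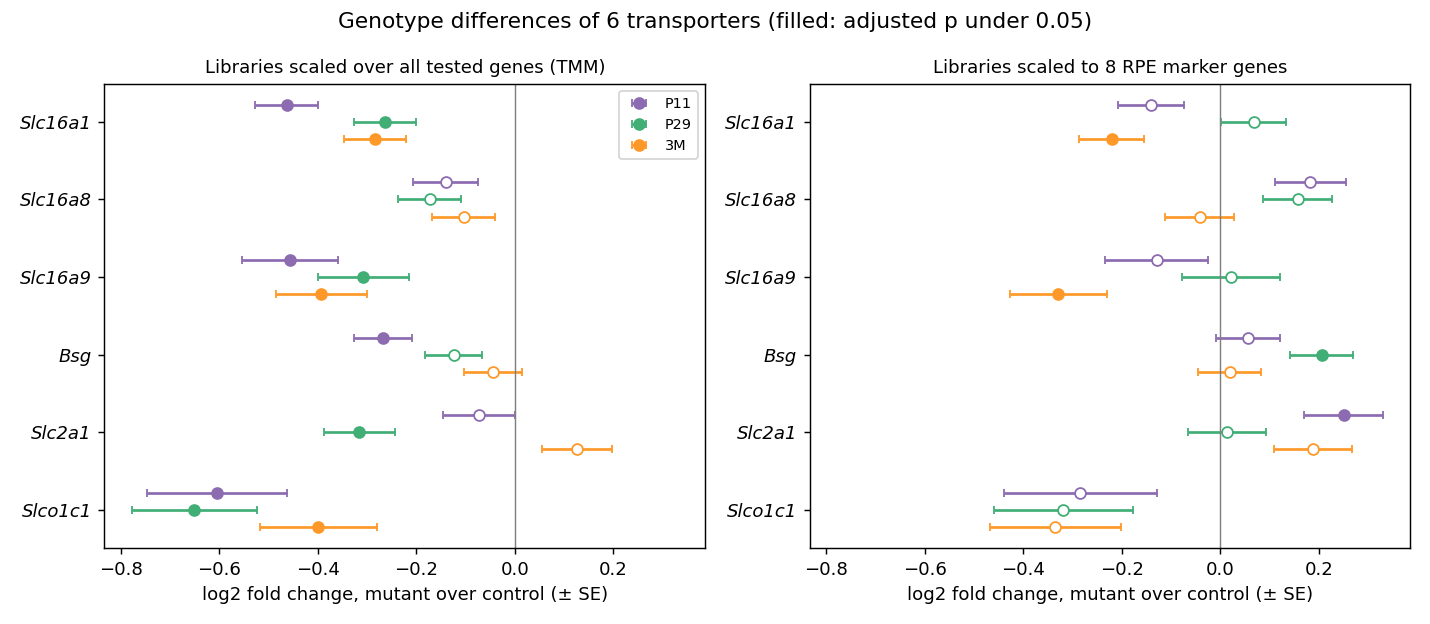
Log2 fold change, mutant over control (horizontal axes, ± SE), of 6 transporters at P11 (purple), P29 (green) and 3M (orange), with libraries scaled over all tested genes (left) or to 8 RPE marker genes (right); filled points have an adjusted p under 0.05. On the left 11 points are filled, all below 0, and on the right 4 are filled, 2 on each side.

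The lists of neighbouring pathway genes were then read in the same fit. Among 13 other monocarboxylate carriers and basigin relatives, 6 passed the filter. Slc16a6, a carrier of ketone bodies and taurine, was higher at P11 at 0.34 (SE 0.10, adjusted p = 0.0284). In the same list 1 gene was lower at P11 and 1 at P29, and no gene passed at 3M. The list's median log2 fold change was -0.08, -0.26 and -0.03 at the 3 ages, beside the medians of all genes given above. Scaled to RPE markers, Slc16a6 was higher at P11 and P29, at 0.67 and 0.30.

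Of 20 genes of thyroid hormone transport and action, 17 were tested. With libraries scaled over all genes none was higher at any of the 3 ages, while 3 were lower at P11, 1 at P29 and 1 at 3M. Both chains of the amino acid exchanger that also carries thyroid hormone fell at P11, Slc7a5 at -0.48 (SE 0.14, adjusted p = 0.0197) and Slc3a2 at -0.27 (SE 0.09, adjusted p = 0.0429). Klf9, a transcription factor gene induced by thyroid hormone receptors, was the 1 gene of the list lower at 3M, at -0.47 (SE 0.09, adjusted p = 0.000193), from 356 ± 20.5 to 258 ± 13.2 CPM (SD, n = 4), and stood at 0.01 at P11. The receptors Thra (-0.00, -0.19 and 0.29) and Thrb (-0.02, -0.06 and -0.12) and the carrier protein Ttr (0.03, -0.06 and 0.04) passed at no age on the scale over all genes. The list's median was -0.27, -0.17 and 0.02 at the 3 ages. Scaled to RPE markers the counts changed to 4 higher and none lower at P11, 2 higher and none lower at P29, and 1 higher and 1 lower at 3M. This scale shifted genes in general, with 2274 of all 12303 called higher at P11, 1705 at P29 and 354 at 3M. The list's genes higher at P11 were Ttr (0.36), not itself a scaling marker, Klf9 (0.34), the retinoid X receptor gene Rxra (0.77) and the thyroid hormone-binding Crym (0.90). Ttr (0.27) was higher at P29, as was Rxrg, which gave 0 to 4 counts a library in the P29 controls, and the carrier Slco4a1 (1.08) was higher at 3M, where Klf9 was still lower (-0.40). Slc3a2 and Slc7a5, at 0.05 and -0.15 at P11, no longer passed. Genes of the lists named for this scale alone were chosen after their values were seen.

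Among 16 other sugar transporters, 5 were tested. Slc2a12 (GLUT12) was higher at P11 at 0.67 (SE 0.20, adjusted p = 0.0224), and the sugar efflux carrier Slc50a1 was lower at -1.46 (SE 0.37, adjusted p = 0.00551). Slc2a4, the insulin-regulated glucose transporter, was higher at 3M at 1.44 (SE 0.38, adjusted p = 0.0168), from a mean of 6.25 to 17 CPM. No gene of this list passed at P29 on the scale over all genes. The list's median was -0.10, -0.23 and 0.21, and the 3 calls kept their direction when scaled to RPE markers, with Slc50a1 at -1.14. On that scale Slc2a4 was also called higher at P11 (1.30) and P29 (1.12).

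Lactate and pyruvate genes, 15 of 16 tested, included 1 lower at P11, 2 higher at P29 and 3 higher at 3M. Ldhb, the lactate dehydrogenase chain that favours oxidation, fell at P11 at -0.49 (SE 0.10, adjusted p = 0.000642). Hexokinase genes were higher at P29, Hk2 at 0.85 (SE 0.16, adjusted p = 0.000161) and Hk1 at 0.40 (SE 0.10, adjusted p = 0.00892). At 3M Hk2 was at 0.80 (SE 0.18, adjusted p = 0.00144), Pkm, pyruvate kinase, at 0.37 (SE 0.07, adjusted p = 0.000193), and Ldha, named after its values were seen, at 0.38 (SE 0.11, adjusted p = 0.0393). Rods express glycolytic genes at high levels, and the 8 rod genes summed to 9070 to 9773 CPM in P29 controls and 13000 to 14360 in mutants, and to 3433 to 3823 and 6255 to 6679 at 3M. Their part in the hexokinase, Pkm and Ldha values was not tested. The list's median was -0.0021, 0.10 and 0.20. On the RPE-marker scale the list had 4 higher at P11, 5 at P29 and 3 at 3M, with none lower. Of all 12303 genes, 2274, 1705 and 354 were called higher on that scale at these ages. Hk1, Ldha, Pkm and the pyruvate carrier subunit Mpc2 were the 4 at P11, at 0.60, 0.46, 0.50 and 0.71. The same 4 and Hk2 were higher at P29, and Hk2, Pkm and Ldha at 3M, while Ldhb at -0.17 no longer passed at P11.

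Of 14 genes of the hypoxia-inducible factor pathway, 11 were tested, and 1 fell at P11, 2 fell and 1 rose at P29, and 1 rose at 3M. Epas1, one of the oxygen-regulated subunits, stood at -0.38 (SE 0.09, adjusted p = 0.00176) at P11 and -0.33 (SE 0.08, adjusted p = 0.00696) at P29. Vegfa, the growth factor that maintains the choriocapillaris, was lower at P29 at -0.35 (SE 0.10, adjusted p = 0.0309). Ndrg1, a gene induced in low oxygen, was higher at P29, with 0.62 (SE 0.15, adjusted p = 0.00372), and again at 3M, with 0.66 (SE 0.19, adjusted p = 0.0374). The list's median was 0.16, -0.03 and 0.05, and its calls went in both directions. With RPE-marker scaling, 4 were higher at P11, 2 at P29 and 1 at 3M, with none lower. That stood beside 2274, 1705 and 354 higher of all 12303 genes. Hif1a, another oxygen-regulated subunit, was higher at P11 (0.49) and P29 (0.66), and Ndrg1 at all 3 ages. Vhl, which marks these subunits for degradation, was higher at P11 at 0.87, as was Vegfa at 0.33. Vegfa at P29 (-0.02) and Epas1 at P11 and P29 (-0.05 and 0.00) did not pass.

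**Figure D4:**
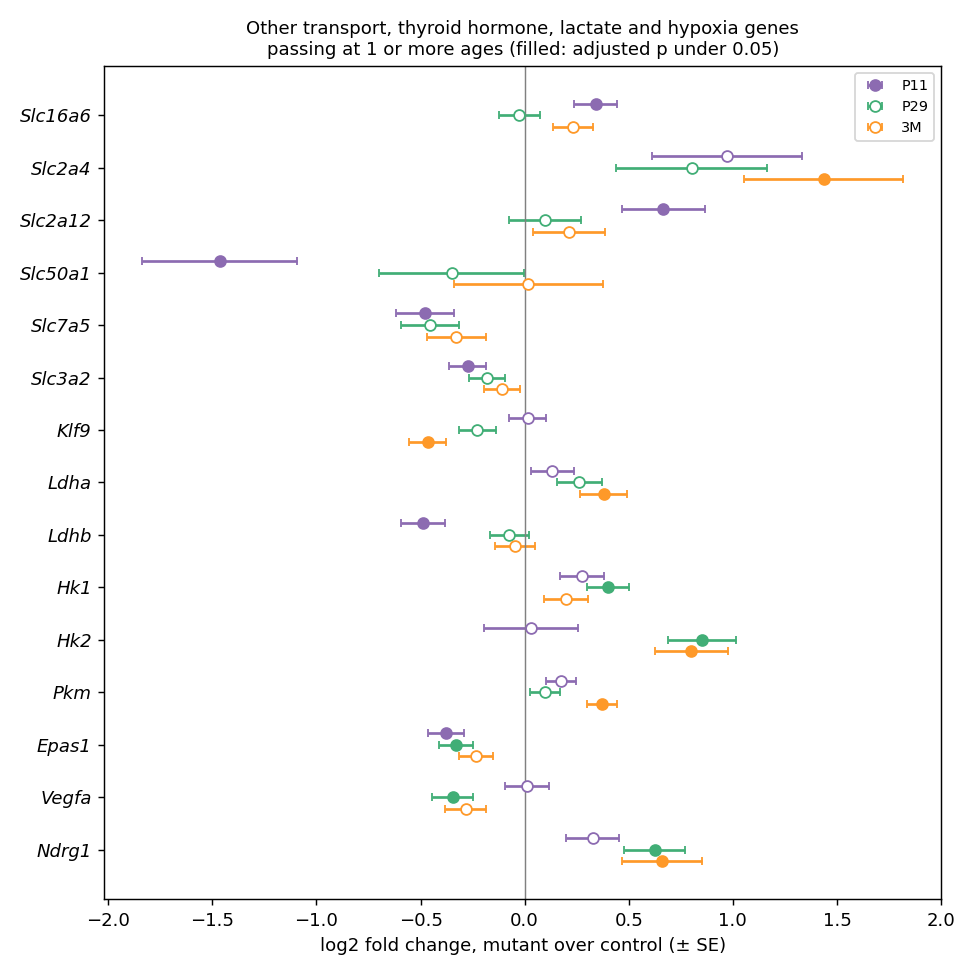
Log2 fold change, mutant over control (horizontal axis, ± SE), of 15 other genes of transport, thyroid hormone, lactate and hypoxia lists at P11 (purple), P29 (green) and 3M (orange), with filled points for an adjusted p under 0.05. With libraries scaled over all tested genes, Epas1 is filled below 0 at P11 and P29, and Hk2 is filled above 0 at P29 and 3M.

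Across the 24 libraries, the log2 CPM of the 6 members with ample counts rose and fell together, with Pearson's r from 0.80 between Slc16a1 and Slc2a1 to 0.98 between Slc16a8 and Bsg, a description over libraries that share the 3 ages. Among the genes most like each member, out of 6413 with a mean of at least 20 CPM, were Ezr (r = 0.994), Rpe65 (0.993) and Clu (0.992) for Slc16a8, and Trf (0.991) and Lrat (0.989) for Bsg. Slc16a1 was most like Lrp1 (0.965), Wls (0.963) and Prodh (0.962), Slc16a9 most like Cnn3 (0.97), Pde4dip (0.969) and Sgk1 (0.968), and Slc2a1 most like Fam107a (0.956), Pla2g16 (0.954) and Lhx2 (0.948). The nearest to Slco1c1 were Plin2 (0.947), Slc6a13 (0.946) and Etfb (0.944), and for the sparse Slc16a3 r was at most 0.809.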

How the data were processed

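RNA of isolated RPE was measured in 24 libraries made with a 3' tag kit. The authors deposited whole-number counts per gene, 1 file per library, and the submitters' processing notes name STAR and mm10. Not given in the sources used here are the counting tool, its annotation and strand setting, and whether molecular identifiers were used. The 5 special entries of each file stayed out of library sizes and tests, with reads assigned to no gene at 18.6% to 27.5%. Symbols matched 30934 of 31053 identifiers.

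The main test was edgeR 4.0.16 (R 4.3.3), quasi-likelihood and robust, with TMM scaling and filterByExpr, on all 24 libraries with 1 mean per group. Benjamini-Hochberg adjustment ran over the 12303 genes left. A call is an adjusted p under 0.05, and every fold change is on the log2 scale. Members and lists were chosen with earlier results of these data known. Named genes were the 8 members, up to 4 called genes per pathway list with at least 5 CPM in 1 group, the 2 marker genes of smallest p in a comparison, and the 3 genes most like each member. Some genes that this rule names are not reported here. Alternatives were median-of-ratios factors, DESeq2 1.42.0, limma 3.58.1 voom, other filters, the compared groups alone, a replicate block, leaving out each library, and scaling to RPE markers, the last added after seeing the data. The scripts were tested on simulated data. Replicate pairs within a group differed by more than sampling noise.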

Additional observations from a re-analysis of the deposited data

Results flagged for a closer look

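In the P29 mutants Slco1c1 stood at 95.65 CPM in replicate 3, far from the other 3 libraries, which ran from 71.3 to 74.9 CPM. Slc16a12 in P11 mutant replicate 2 stood at 2.617 CPM, from 6 counts, while the other 3 libraries of that group had 0 or 1 count. For 4 normally distributed values chance marks about 1 in 20 groups in this way, a rate that does not hold for the few counts of Slc16a12. Of 48 sets of a member and a group 2 were marked, and sets with 0 counts in every library could not be.

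The genotype effect on Slc2a1 at 3M minus that at P29 was 0.442 on the log2 scale (edgeR, adjusted p = 0.00682), a difference of effects that was tested directly. In the P29 mutants, where Slc2a1 was lower, lens genes summed to 754 to 791 CPM against 33.2 to 48.2 in controls, and their part in the result was not tested. Scaled to RPE markers the difference was 0.17 (adjusted p = 0.518).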

How the results depend on the processing

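Depth limits Slc16a3 and Slc16a12 above all, and the labels do not say how many animals stand behind a library. Of 32 called values of members, DESeq2 and the filter of 5 CPM in 4 libraries kept all 32 calls, and voom, median-of-ratios factors, the compared groups alone and the replicate block lost 1 each. Without the low-count filter 2 were lost, and in refits without 1 library 26 of 264. The cause was not tested. With each library of the compared groups left out in turn, 2 to 4 members were called between genotypes at P29. From P29 to 3M in controls such refits called 1 to 4, and DESeq2 called 7, of which 6 were higher.

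Scaled to RPE markers, 1 member was called at P11 and 1 at P29, both higher in mutants, and none (0) in the difference between 3M and P29. The genotype effect then reversed at P11 for Slc16a8 (0.18), Bsg (0.057) and Slc2a1 (0.25), at P29 for Slc16a1 (0.068), Slc16a8 (0.16), Slc16a9 (0.022), Bsg (0.21) and Slc2a1 (0.014), and at 3M for Bsg (0.019). From P11 to P29, values in controls and mutants were -1.01 and -0.80 for Slc16a1, -0.36 and -0.38 for Slc16a8, -0.61 and -0.46 for Slc16a9, -0.70 and -0.55 for Bsg, -1.02 and -1.25 for Slc2a1, and -0.68 and -0.72 for Slco1c1. From P29 to 3M they were -0.15 and -0.34 for Slc16a8, -0.15 and -0.34 for Bsg, and -0.14 for Slc2a1 in controls. RPE markers rise with age and are lower in mutants, and this scaling subtracts their change from every gene.

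Genes called at P11 numbered 563 with voom against 853, and 2415 with RPE-marker scaling, and at P29 1729 against 350. With that scaling the age steps called 111 higher and 10504 lower genes (P29 against P11, controls), 122 and 10339 (mutants), 68 and 2984 (3M against P29, controls) and 43 and 5489 (mutants), against 2026 and 1917, 2022 and 1873, 429 and 1046, and 669 and 895. The difference between 3M and P29 called 178 genes with DESeq2, 168 with voom and 185 with RPE-marker scaling, against 105, and that between 3M and P11 474, 193 and 560 against 311.

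Replicate numbers did not pair the libraries: over 12 pairs the correlation of deviations ran from -0.07 to 0.06, and a library matched its own number best in 4 of 12. With the replicate block the call on Slc2a1 from P29 to 3M in controls was lost (0.20, adjusted p = 0.0511), with 3 members called against 4.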
